A study of Macaca fascicularis with 23 samples.

Results

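The comparison described here is the middle step of a dose series: the livers of 4 cynomolgus monkeys (Macaca fascicularis) dosed daily with 150 mg/kg of ciprofibrate over 15 days against those of 4 monkeys on 30 mg/kg/day over the same time, a dose ratio of 5. The members are these 8 animals, picked by the dose and day in their sample titles, out of 23 in the series. The other 15-day animals were 4 given 400 mg/kg/day, 4 given 3 mg/kg/day and 3 given vehicle only. The series also holds 4 animals studied after 4 days, which entered the fit but no comparison here. Strain, age and sex of the animals are not given in the sources used here. Each animal gave 1 piece of the right lateral liver lobe and 1 array, so the replicates are separate animals.

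Ciprofibrate is a fibrate. Fibrates bind PPAR-alpha, a nuclear receptor that pairs with RXR on DNA and, in liver, drives genes of fatty acid uptake, activation and oxidation in mitochondria and peroxisomes. In rodents the same drugs enlarge the liver and multiply peroxisomes, a response known to be weaker in primates. The question put to this pair of groups is what raising the dose over this step added to the liver's RNA levels.

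The arrays carry probes designed on human transcripts, and each probe set gives 1 intensity per animal on a linear scale. Differences are given as log2(intensity + 16) at 150 minus 30 mg/kg/day with the standard error (SE) of the fit, and calls were made where the adjusted p was under 0.05. The 13 hepatocyte markers measured summed to between 72341 and 103939.5 per animal at 150 mg/kg/day and between 98814 and 125476 at 30 mg/kg/day, so markers of the labelled tissue were bright in every animal. Array medians, the 5'/3' intensity ratios of ACTB and of GAPDH and the correlation with arrays of the same group were compared between the 2 groups by an exact two-sided permutation test, whose smallest possible p with 4 against 4 is 0.0286. Their p-values lay between 0.314 and 0.686 (0.686 each after adjustment over the 4 measures). The array of 30 mg/kg/day replicate 4 had the lowest mean correlation with its own group, 0.8664, where the other 7 arrays had at least 0.8885. The number of arrays limits the precision: the median SE over all probe sets was 0.35.

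Few single genes passed the test at this step. Of 12558 probe sets, 2 were called, both higher at 150 mg/kg/day, which is 0.0159% of those tested: one for MT1G, a metal-binding metallothionein, and one for REST, a repressor of neuronal genes. At an unadjusted p under 0.05 there were 494 higher probe sets (3.93%) and 548 lower ones (4.36%), 1042 in all where 628 were expected by chance. The count of calls rose without some single animals: it was 11 without 30 mg/kg/day replicate 3, and 4 each without 30 mg/kg/day replicate 4, 150 mg/kg/day replicate 1 or 150 mg/kg/day replicate 3. MT1G and REST stayed called in each of the 8 fits that left out 1 of these animals. Among the probe sets representing 8226 genes, the 4 animals at 150 mg/kg/day all lay above the 4 at 30 mg/kg/day for 151 genes (1.84%) and all below for 167 genes (2.03%). With arrays brought to one median these counts were 183 and 109. These figures are the background against which the gene groups below are read. Because whole tissue was measured, fewer cells of a type and less RNA per cell cannot be told apart in any of them.

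**Figure D1:**
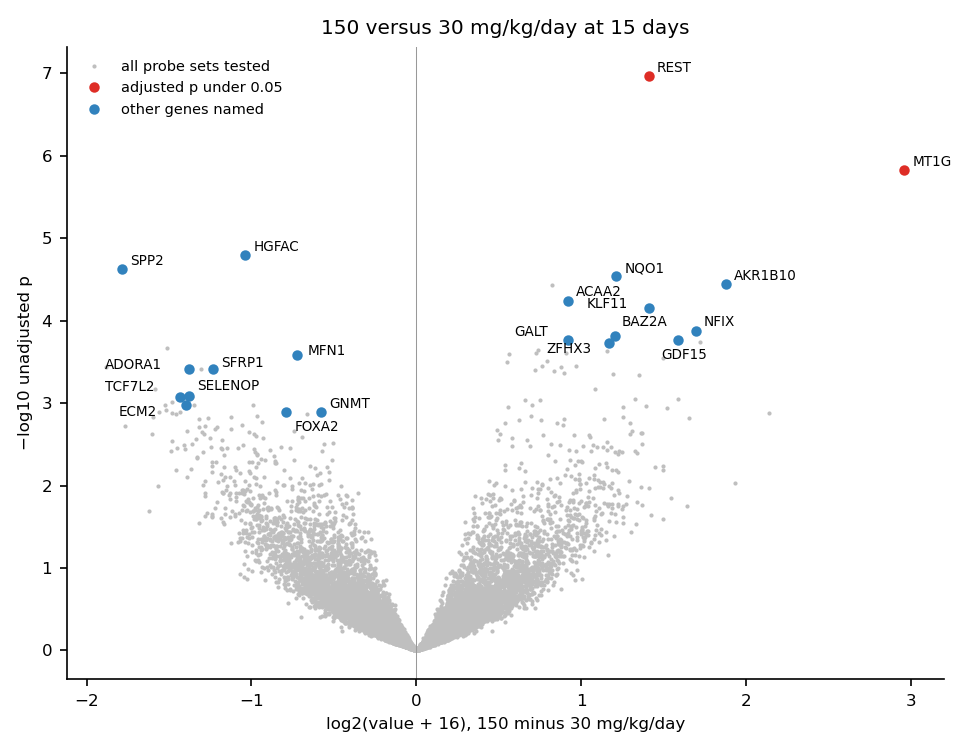
Difference at 150 minus 30 mg/kg/day on the log2(value + 16) scale (horizontal) against the −log10 of the unadjusted p (vertical) for 12558 probe sets. The 2 called probe sets, REST and MT1G, are red, and the other genes named by the ranking rule are blue, with MT1G the largest difference at 2.96.

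MT1G had intensities of 7472, 3077, 7153 and 2446.5 at 150 mg/kg/day, against 907, 631, 541 and 321 at 30 mg/kg/day. All 4 animals on the higher dose stood above all 4 on the lower one. The rise was 2.96 ± 0.46 on the log2 scale, or 7.77-fold, with an adjusted p of 0.00929. Its adjusted p was 0.0572 with array weights, and it was called in each of the 8 fits that left out 1 of these animals. Across the 15-day groups its mean was 621 ± 190.5 with vehicle, 1064 ± 543 at 3, 600.0 ± 243 at 30, 5037 ± 2643 at 150 and 339 ± 247 at 400 mg/kg/day (SD, n = 3 for vehicle and 4 otherwise). High values were thus found at 150 mg/kg/day and not in the group on the dose above it. The difference between this step and the next, 150 to 400 mg/kg/day, was called at 6.84 ± 0.80 (adjusted p = 8.04e-05). Both steps share the 150 mg/kg/day animals, so a high group there enlarges this difference by itself. The difference from the step before was 3.74 ± 0.80 (adjusted p = 0.222).

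Metallothioneins are small cysteine-rich proteins that bind zinc and copper. Their genes are near-identical copies, and the probe sets whose names end in f_at hold probes shared by a family, so those signals cannot be assigned to 1 gene. Of the 11 probe sets naming a single metallothionein gene, 9 had positive differences, against 47.9% of all probe sets tested. Groups did not overlap in 5, all higher at 150 mg/kg/day, where 1.78% of all probe sets lay wholly above. All of these but MT1G have names ending in f_at, so they are not separate measurements. The 2 with negative differences were both for MT4, at -0.08 ± 0.16 and -0.35 ± 0.41 with overlapping groups. MT1H had 20375, 19337, 20085 and 20969 at 150 mg/kg/day and 13362.5, 13044, 11028 and 11445 at 30 mg/kg/day, a difference of 0.73 ± 0.17 (adjusted p = 0.15). The MT1H groups did not overlap and its values at the higher dose were tightly grouped. The difference for MT1B was 0.79 ± 0.19 (adjusted p = 0.15), for MT1F 0.58 ± 0.18 and for MT1E, the brightest of them, 0.36 ± 0.20. At 3 mg/kg/day, replicate 4 reached or passed the range at 150 mg/kg/day for MT1H (20626), MT1B (21289.5), MT1F (23131) and MT1E (40345). The other animals at that dose stayed below it, except replicate 3 for MT1E (33304). MT1E also had 42056 in vehicle replicate 1, and its vehicle mean of 29925 lay above the 30 mg/kg/day mean of 27166. MT1X differed by 0.94 ± 0.32 and MT2A by 0.24 ± 0.17, each with overlapping groups. Both MT3 probe sets overlapped as well, with 0.07 ± 0.25 for the specific one and 0.88 ± 0.41 for the family one. In MT1H too the step from 30 to 150 differed from the step from 150 to 400 mg/kg/day, by 1.99 ± 0.29 (adjusted p = 0.00235), the mean at 400 mg/kg/day being 8508 ± 1595 (SD, n = 4). In the wider list of metallothioneins and metal handling, 1 of 17 measured genes was called and the median was 0.24, against -0.02 over all genes. There, 5 lay wholly above (29.4%, against 1.84% of all genes) and 0 wholly below (0%, against 2.03%). These 5 are the metallothionein genes without overlap described above, so the wider list is not a separate observation. Of its 17 genes, 10 had higher means at 150 mg/kg/day and 7 lower.

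**Figure D2:**
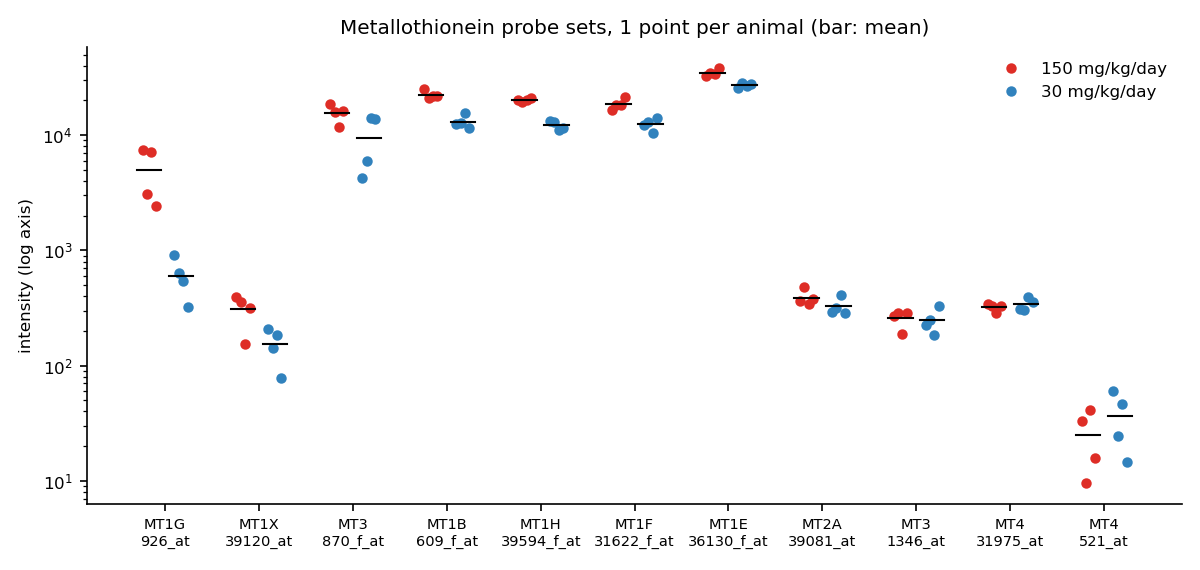
Intensity (log axis) of the 11 probe sets naming 1 metallothionein gene in each animal at 150 mg/kg/day (red) and at 30 mg/kg/day (blue), with bars at the group means. MT1G, MT1B, MT1H, MT1F and MT1E have groups that do not overlap, and MT1G has the widest gap.

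REST had 50.0, 50.3, 41.8 and 61.5 at 150 mg/kg/day and 6.10, 9.60, 8.40 and 12.6 at 30 mg/kg/day. The groups did not overlap, and the animals of each were close together. The rise was 1.41 ± 0.19 on the log2 scale (adjusted p = 0.00134). Over all arrays REST lay below the 40th percentile of mean intensity (39.7), so neither its level at 30 mg/kg/day nor the size of the rise is exact. Means were 8.50 ± 1.01 with vehicle, 6.53 ± 2.00 at 3 and 8.07 ± 4.37 at 400 mg/kg/day (SD, n = 3 for vehicle and 4 otherwise), so the signal was found at 150 mg/kg/day alone among the 15-day groups. The step beyond, which shares the 150 mg/kg/day animals, differed by 2.89 ± 0.32 (adjusted p = 6.92e-05). The call was lost with a pseudocount of 1 (adjusted p = 0.0607) and in a fit of the 8 arrays alone (adjusted p = 0.405). It was kept in each of the 8 fits that left out 1 of these animals.

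Mitochondrial fatty acid oxidation shortens acyl chains in cycles of dehydrogenation, hydration, a second dehydrogenation and thiolysis. None of its 20 measured genes was called at this step, yet 4 lay wholly above and 0 wholly below (20.0% against 1.84% and 0% against 2.03% of all genes). At an unadjusted p under 0.05, 8 were higher and 0 lower, against 349 and 380 of all 8226 genes, and the list's median was 0.33. Over 13 alternatives the list's median stayed between 0.18 and 0.41. The thiolase ACAA2, which releases acetyl-CoA in the last reaction of the cycle, had 13151, 9486, 8463 and 11777 at 150 mg/kg/day and 4697, 7494, 5909 and 4652 at 30 mg/kg/day. The lowest animal at the higher dose was above the highest at the lower dose, and the difference was 0.92 ± 0.19 (adjusted p = 0.0898).

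The 2 subunits of the trifunctional protein, which carries out the later reactions on long chains, showed the same separation. HADHA had 1532, 1734, 1343.5 and 1359.6 at 150 mg/kg/day and 644, 1072, 893 and 757 at 30 mg/kg/day, a difference of 0.83 ± 0.20 (adjusted p = 0.151). HADHB had 7414, 7843, 5386 and 6968 at 150 mg/kg/day and 3804, 4247, 4226 and 3077 at 30 mg/kg/day, a difference of 0.84 ± 0.27 (adjusted p = 0.367). In neither gene did an animal of one group enter the range of the other. The very long chain dehydrogenase ACADVL was the remaining gene wholly above (0.35 ± 0.15, adjusted p = 0.537). The electron acceptor subunit ETFB overlapped, with 0.73 ± 0.26, as did the carnitine carrier SLC22A5 with 1.03 ± 0.36 and the medium-chain dehydrogenase ACADM with 0.42 ± 0.17. CPT1A, which makes the acylcarnitines that enter mitochondria, had means of 166 ± 87.4 at 150 mg/kg/day and 131 ± 19.2 at 30 mg/kg/day (SD, n = 4 each), a difference of 0.19 ± 0.36 that was below 0 without 150 mg/kg/day replicate 4. A brighter probe set that names CPT1A together with RDH5 and BLOC1S1-RDH5, and so cannot be assigned to 1 gene, was wholly above (0.75 ± 0.20, adjusted p = 0.254). The difference for ACAA2 at this step was set against those of the neighbouring steps, and neither was called (0.60 ± 0.32 against the lower step, 0.91 ± 0.32 against the upper one, adjusted p = 0.713 and 0.543).

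Among 23 known PPAR-alpha target genes, a list that shares HADHA, HADHB and others with the one above, 0 were called and the median was 0.35. Of these, 4 lay wholly above (17.4%, against 1.84% of all genes) and 1 wholly below (4.35%, against 2.03%). The one wholly below was EHHADH, the peroxisomal bifunctional enzyme, with intensities mostly near or under the 40th percentile (-0.78 ± 0.38, adjusted p = 0.602). FADS2, the delta-6 fatty acid desaturase, had 562, 580.5, 556 and 521 at 150 mg/kg/day, against 52.3, 11.4, 404 and 345 at 30 mg/kg/day. The 4 animals on the higher dose were alike, while those on the lower dose fell into 2 high and 2 low values, with the low ones around or below the intensity of the 40th percentile. The difference of 2.14 ± 0.58 had an adjusted p of 0.26. FABP1, the liver fatty acid binding protein, had 4738, 9823, 3404 and 6060.4 at 150 mg/kg/day and 1590.1, 1083, 3588 and 3514 at 30 mg/kg/day. These ranges overlapped, since 2 animals at 30 mg/kg/day exceeded the lowest at 150 mg/kg/day, and the difference was 1.36 ± 0.49 (adjusted p = 0.465). The droplet coat protein PLIN2 differed by 0.77 ± 0.38, the desaturase SCD by 0.91 ± 0.54 and PDK4, a kinase that restrains pyruvate oxidation, by -0.56 ± 0.35, each with overlapping groups.

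The receptor's own gene, PPARA, had 700.0, 895, 992 and 842 at 150 mg/kg/day and 461, 693, 374 and 594 at 30 mg/kg/day. The groups were separated by a narrow gap, and the difference was 0.70 ± 0.19 (adjusted p = 0.256). Its means were 618 ± 72.2 with vehicle, 884 ± 142 at 3 and 461 ± 50.5 at 400 mg/kg/day (SD, n = 3 for vehicle and 4 otherwise), so the 150 mg/kg/day mean lay near that at 3 mg/kg/day. The list of nuclear receptors and liver transcription factors that holds PPARA had a median of -0.02 over 23 genes. Of these, 1 was wholly above (4.35%, against 1.84% of all genes) and 2 wholly below (8.7%, against 2.03%). FOXA2, which opens liver enhancers, had 148, 147, 133 and 138 at 150 mg/kg/day and 239.8, 219, 259.8 and 316 at 30 mg/kg/day, without overlap (-0.79 ± 0.22, adjusted p = 0.26). Its dimmer probe set overlapped, at -0.37 ± 0.51.

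In peroxisomes the pattern was mixed. Of 19 genes of peroxisomal oxidation and assembly, 1 lay wholly above (5.26%, against 1.84% of all genes) and 3 wholly below (15.8%, against 2.03%). Of the 19, 0 were called, and the median of -0.11 changed sign in 2 of 13 alternatives. The thiolase ACAA1 had means of 1922 ± 315 at 150 mg/kg/day and 1446 ± 344 at 30 mg/kg/day (SD, n = 4 each; 0.42 ± 0.16). Its other probe set gave 0.53 ± 0.21. Catalase, CAT, which breaks down the hydrogen peroxide made by peroxisomal oxidation, had the opposite sign, with 459 ± 182 at 150 mg/kg/day and 883 ± 328 at 30 mg/kg/day (SD, n = 4 each; -0.89 ± 0.33). The groups overlapped in both genes. PEX19, a chaperone for peroxisomal membrane proteins, did not overlap and differed by 0.63 ± 0.25. EHHADH, the oxidase ACOX2 (-0.45 ± 0.21) and the assembly factor PEX6 (-0.28 ± 0.18) were those wholly below.

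Fatty acid and triglyceride synthesis had a median of 0.22 over 18 genes. Wholly above were FADS2 and TKT, a pentose phosphate enzyme (11.1%, against 1.84% of all genes). Wholly below was the elongase ELOVL2 (5.56%, against 2.03%). ACACA, the first committed enzyme of fatty acid synthesis, differed by 0.67 ± 0.29 with overlapping groups. In the list of fatty acid binding and droplet proteins 0 of 14 genes were separated. In cholesterol synthesis and uptake (15 genes measured) only NSDHL, a sterol dehydrogenase, was (0.67 ± 0.20), wholly above (6.67%, against 1.84% of all genes). Of the 3 ketone body enzymes measured, BDH1, which interconverts acetoacetate and hydroxybutyrate, differed by 0.58 ± 0.21 with overlapping groups.

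Genes of the oxidative stress response were split. NQO1, a quinone reductase under control of NRF2, had 751, 651, 833 and 764 at 150 mg/kg/day and 263.5, 305, 283 and 421.5 at 30 mg/kg/day. Every animal on the higher dose was above every animal on the lower one, with a difference of 1.21 ± 0.23, or 2.32-fold (adjusted p = 0.0663). AKR1B10, an aldo-keto reductase of reactive aldehydes, had 103, 190.5, 255 and 156 at 150 mg/kg/day and 37.5, 12.3, 63.3 and 36.8 at 30 mg/kg/day. These groups were also apart (1.88 ± 0.37, adjusted p = 0.0663), though most animals at 30 mg/kg/day lay near or below the intensity of the 40th percentile, so the size is not exact. NQO1 was called with arrays brought to one median (adjusted p = 0.0342) and without 30 mg/kg/day replicate 4 (adjusted p = 0.0489), and AKR1B10 without 30 mg/kg/day replicate 3 (adjusted p = 0.0328). In the list, 5 of 30 genes were wholly above (16.7%, against 1.84% of all genes) and 1 wholly below (3.33%, against 2.03%). Of the 30, 0 were called, and the median was 0.08. The conjugate exporter ABCC3 (1.21 ± 0.40, with 0.29 ± 0.46 from its other probe set) and the plasma glutathione peroxidase GPX3 (0.76 ± 0.27) were among those wholly above.

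CYP2E1, which oxidises ethanol and other small molecules, had 3471, 12870.2, 7268 and 6495 at 150 mg/kg/day and 20575, 24211, 16092 and 14843.5 at 30 mg/kg/day. The highest animal on the higher dose was below the lowest on the lower one. The difference was -1.45 ± 0.45 (adjusted p = 0.32), and the gene's other probe set gave -1.52 ± 0.41, also without overlap. Over the 19 cytochrome P450 genes and partners measured, the median of 0.08 changed sign in 1 of 13 alternatives. Wholly above lay 0, against 1.84% of all genes, and wholly below 2 (10.5%, against 2.03%). These 2 were CYP2E1 and the fatty acid epoxygenase CYP2J2 (-0.66 ± 0.30, with 0.28 ± 0.48 from its other probe set). CYP2C8 differed by 0.66 ± 0.23 (0.40 ± 0.32 from its other probe set), with overlap. The electron donor CYB5A differed by 0.66 ± 0.22 (0.12 ± 0.18 and 0.28 ± 0.43 from its other probe sets), also with overlap. In conjugation and other drug metabolism 1 of 37 genes was wholly above, AKR1B10 (2.7%, against 1.84% of all genes). The 2 wholly below (5.41%, against 2.03%) included the flavin monooxygenase FMO5 (-1.03 ± 0.37).

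Genes of secreted liver proteins had mostly negative differences. In coagulation and fibrinolysis 27 of 34 genes had lower means at 150 mg/kg/day (median -0.29), and in acute phase and other plasma proteins 27 of 36 did (median -0.23), against a median of -0.02 over all genes. Only 1 of the 34 (2.94%) and 3 of the 36 (8.33%) were wholly below, against 2.03% of all genes. In either list 0 were wholly above, against 1.84%, and 0 were called. HGFAC, the protease that activates hepatocyte growth factor, had 1053.5, 645, 726 and 864 at 150 mg/kg/day and 1668, 1620.2, 1366 and 2147 at 30 mg/kg/day. The groups were apart, with a difference of -1.04 ± 0.19 (adjusted p = 0.0663), and HGFAC was called with a pseudocount of 64 (adjusted p = 0.0424) and with arrays brought to one median (adjusted p = 0.0343). SPP2, a secreted phosphoprotein first found in bone, had 138.5, 81.1, 109.9 and 27.6 at 150 mg/kg/day and 326, 268, 221 and 487 at 30 mg/kg/day.

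SPP2 was lower in each animal at the higher dose than in any at the lower dose (-1.78 ± 0.34, adjusted p = 0.0663), and replicate 4 at 150 mg/kg/day was under the intensity of the 40th percentile. SPP2 was called with a pseudocount of 64 (adjusted p = 0.0404). Both HGFAC and SPP2 were called in the fits without 30 mg/kg/day replicate 3 (adjusted p = 0.0272 and 0.0364) and without 150 mg/kg/day replicate 1 (adjusted p = 0.0352 each). IGF1, the growth hormone dependent growth factor, had 1031, 858, 633 and 360.4 at 150 mg/kg/day and 1248, 1057, 1423 and 1228 at 30 mg/kg/day. Its groups did not overlap (-0.86 ± 0.28, adjusted p = 0.367), and its other probe sets gave -1.53 ± 0.41 without overlap and, with overlap, -0.62 ± 0.57 and 0.04 ± 0.44. The hyaluronan-binding ITIH2 (-0.65 ± 0.21), the fibrinogen-like FGL1 (-1.45 ± 0.49) and the fetuin AHSG (-0.53 ± 0.21) had overlapping groups. Among 29 complement genes the one wholly below (3.45%, against 2.03% of all genes) was CFHR4, a factor H relative. It had 184 ± 94.3 at 150 mg/kg/day and 536 ± 152 at 30 mg/kg/day (SD, n = 4 each; -1.60 ± 0.47). The median of the complement genes, -0.10, changed sign in 1 of 13 alternatives. Of the 13 hepatocyte markers 10 had lower means, with a median of -0.32. That list itself holds CYP2E1 and genes of secreted proteins, among them ALB, TTR, SERPINA1 and FGB, so it is not a separate observation. Their summed intensity, of which SERPINA1, ALB, APOA1 and CYP2E1 were the brightest parts, overlapped between groups, at 88222 ± 17415 for 150 mg/kg/day and 109504 ± 11314 for 30 mg/kg/day (SD, n = 4 each). The part of this shift in the values of the secreted proteins was not tested.

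Of the lipoprotein genes, LCAT, which esterifies plasma cholesterol, was the single one of 18 wholly above (5.56%, against 1.84% of all genes). It had 772 ± 111 at 150 mg/kg/day and 524 ± 22.4 at 30 mg/kg/day (SD, n = 4 each; 0.54 ± 0.18). APOA4 differed by -1.62 ± 0.65, with 1 animal at 30 mg/kg/day inside the range of the other group. GNMT, which consumes methyl groups from S-adenosylmethionine, had 969, 830.3, 792 and 1103 at 150 mg/kg/day and 1297.5, 1482, 1297 and 1438 at 30 mg/kg/day. Its groups were apart (-0.58 ± 0.16, adjusted p = 0.26). GNMT was the only such case among 36 genes of the urea cycle and amino acid metabolism (2.78%, against 2.03% of all genes wholly below). SELENOP, the plasma carrier of selenium, was also wholly below, with 120.5 ± 72.4 at 150 mg/kg/day and 307 ± 69.7 at 30 mg/kg/day (SD, n = 4 each; -1.38 ± 0.36).

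Proteasome subunits had higher means in 27 of 35 genes, with a median of 0.22, 2 wholly above (5.71%, against 1.84% of all genes) and 0 called. PSMB6, a catalytic subunit, had 1224, 1054, 1036 and 1214 at 150 mg/kg/day and 866, 819, 732.5 and 789 at 30 mg/kg/day. The groups were apart and closely spaced within, with a difference of 0.49 ± 0.14 (adjusted p = 0.293). PSMC1, an ATPase of the regulatory cap, differed by 0.69 ± 0.21. Oxidative phosphorylation had a median of 0.00 over 59 genes, with 0 wholly above and 2 wholly below (3.39%, against 2.03% of all genes). At an unadjusted p under 0.05, 1 was higher and 8 lower, against 349 and 380 of all 8226 genes. Cytosolic ribosomal proteins had lower means in 34 of 47 genes (median -0.10), with 0 wholly above and 1 wholly below (2.13%, against 2.03% of all genes). Of these, 0 were higher and 5 lower at an unadjusted p under 0.05, against the same 349 and 380 of all 8226 genes. Immediate early and stress genes had 0 of 37 separated in either direction (median -0.15). JUNB differed by -1.05 ± 0.59 (-0.38 ± 0.44 from its other probe set) and CEBPB by -0.41 ± 0.21. In ER stress and chaperones 2 of 33 were wholly above and 2 wholly below (6.06% each, against 1.84% and 2.03% of all genes). Those wholly below included the disulphide isomerase PDIA4 at -0.50 ± 0.15 and the heat shock factor HSF1 at -1.49 ± 0.46. The other HSF1 probe set gave 0.34 ± 0.44.

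**Figure D3:**
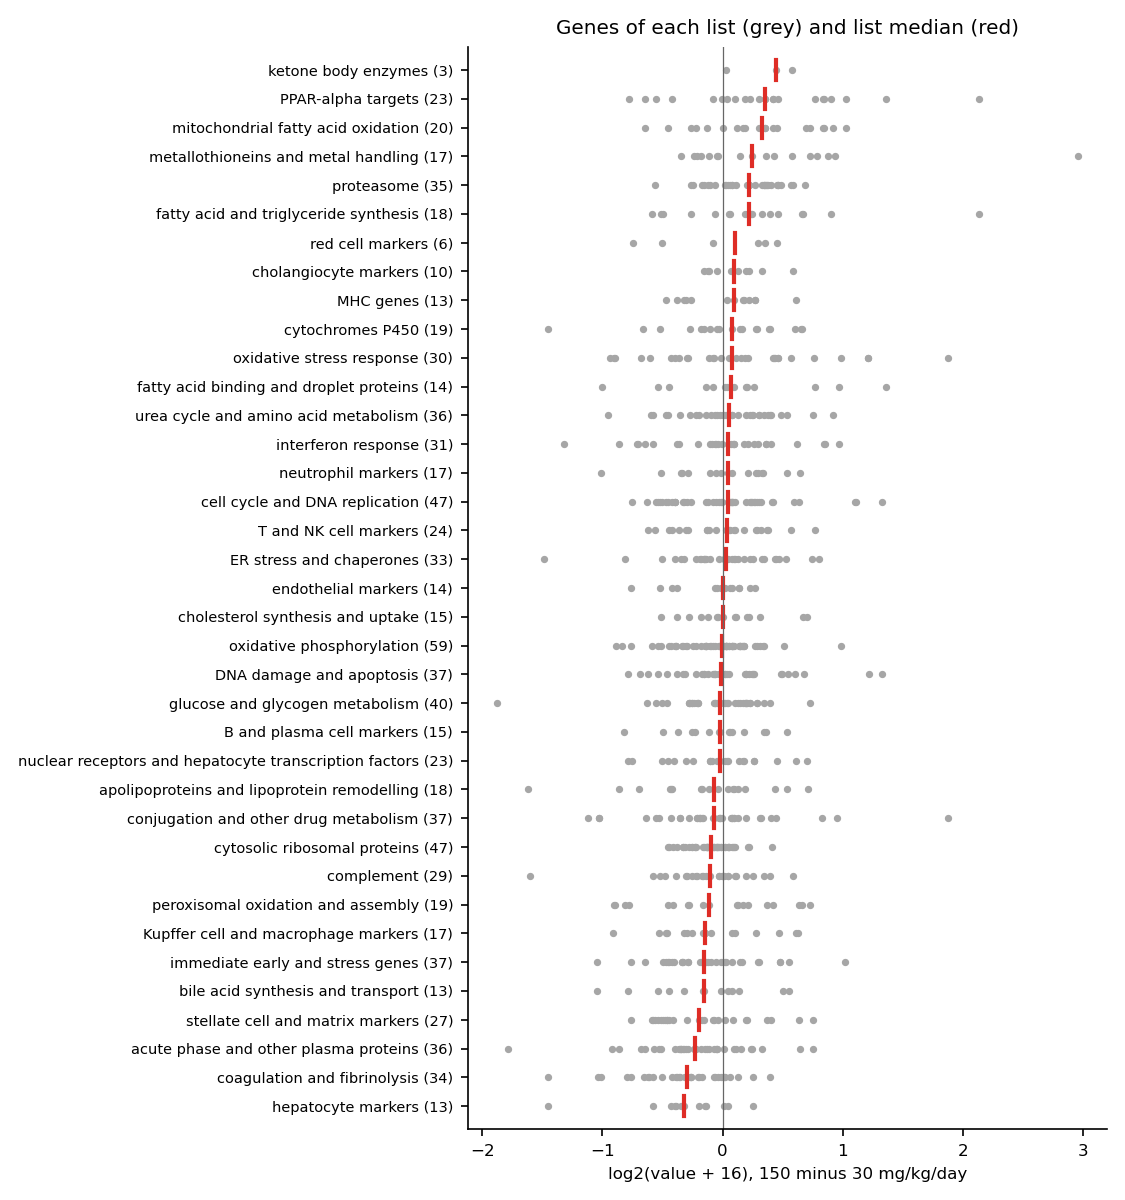
Differences at 150 minus 30 mg/kg/day (horizontal, log2 of value + 16) of the measured genes of 37 lists (grey points) with each list's median (red bar) and the number measured in brackets. Medians run from 0.44 for 3 ketone body enzymes to -0.32 for 13 hepatocyte markers.

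Several of the largest separations lay outside these lists. GDF15, a stress-induced hormone of the TGF-beta family, had 247, 299, 347 and 457 at 150 mg/kg/day and 175, 168, 42.1 and 69.8 at 30 mg/kg/day (1.59 ± 0.35, adjusted p = 0.15). GALT, an enzyme of galactose use, had 688, 657, 492 and 619.5 at 150 mg/kg/day and 309, 355, 392 and 227 at 30 mg/kg/day (0.92 ± 0.21, adjusted p = 0.15). Both were wholly above. For GALT the 30 mg/kg/day group had the lowest mean of the 15-day groups, 321 ± 71.5 against 453 ± 86.1 with vehicle (SD, n = 4 and 3). KLF11, a Kruppel-like transcription factor, had 101, 113, 193 and 118 at 150 mg/kg/day and 24.4, 42.3, 32.0 and 58.7 at 30 mg/kg/day. Its groups were apart (1.41 ± 0.29, adjusted p = 0.0976), but the 15-day means were 227 ± 26.5 with vehicle and 170.0 ± 34.2 at 3 mg/kg/day (SD, n = 3 and 4), so the 30 mg/kg/day group was the lowest of the 15-day groups. The step to 150 differed from the step before it by 3.18 ± 0.51 (adjusted p = 0.0254), the 1 call of that contrast (0.00796% of probe sets), and a second KLF11 probe set gave -0.46 ± 0.32 for the 150 minus 30 difference.

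Further regulators had the same shape of means. NFIX, a nuclear factor I protein, had 937, 812, 821 and 1168.5 at 150 mg/kg/day and 319, 244, 266 and 274 at 30 mg/kg/day (1.69 ± 0.37, adjusted p = 0.15), with a vehicle mean of 1319 ± 544 (SD, n = 3). NFIX was called in a fit of the 8 arrays alone (adjusted p = 0.00506). Its other probe sets gave 0.16 ± 0.51 and 0.29 ± 0.17. The homeobox gene ZFHX3 differed by 1.17 ± 0.26 and BAZ2A, a subunit of a nucleolar chromatin remodeller, by 1.21 ± 0.27, with vehicle means of 187 ± 10.6 and 144 ± 36.5 (SD, n = 3) against 30 mg/kg/day means of 78.0 ± 44.7 and 66.3 ± 9.27 (SD, n = 4). ZFHX3 was called without 30 mg/kg/day replicate 4 (adjusted p = 0.0489). In all 4 of these regulators the group at 30 mg/kg/day had the lowest mean of the 15-day groups. Wholly below at 150 mg/kg/day were the mitochondrial fusion gene MFN1 (-0.72 ± 0.17), the adenosine receptor ADORA1 (-1.38 ± 0.33), the Wnt inhibitor SFRP1 (-1.23 ± 0.30), the Wnt effector TCF7L2 (-1.43 ± 0.37) and the matrix gene ECM2 (-1.40 ± 0.37, with 0.37 ± 0.39 from its other probe set), none of them called. In glucose and glycogen metabolism (40 genes, median -0.02) the single gene apart was the glucose transporter SLC2A2 (2.5%, against 2.03% of all genes wholly below). SLC2A2 had 9.70, 6.80, 16.8 and 11.1 at 150 mg/kg/day, against 109, 65.6, 69.3 and 93.5 at 30 mg/kg/day. Its groups were apart (-1.88 ± 0.45, adjusted p = 0.15), but its mean over all arrays lay below the 40th percentile.

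How this step relates to the response at the top dose was read from a contrast of animals that belong to neither group. The spread in that contrast was estimated over all arrays, those of both groups here included. Probe sets with little spread among these animals were thus more readily called there, and the choice was not independent of this step. In 400 mg/kg/day against vehicle at 15 days, 72 probe sets were called higher (0.573%) and 54 lower (0.43%). Of the 72, 67 were also higher at 150 than at 30 mg/kg/day (93.1%, against 47.9% of all probe sets) and 16 were wholly above (22.2%, against 1.78% of all probe sets). Of the 54, 48 were lower (median -0.32) and 10 wholly below (18.5%, against 1.9%). The median 150 minus 30 difference of the 72 was 0.42, with 32 higher at an unadjusted p under 0.05, against 494 of all 12558 probe sets. At this step 0 of the 126 were called. Set out in dose order, the median change of the 72 was 0.18 for vehicle to 3, 0.16 for 3 to 30, 0.42 for 30 to 150 and 0.55 for 150 to 400 mg/kg/day, and that of the 54 was -0.15, -0.09, -0.32 and -0.59. The first and last of these steps include the animals that chose the probe sets, and neighbouring steps share a group. The steps also differ in dose ratio, which was 10 for 3 to 30 and 5 for 30 to 150 mg/kg/day. Vehicle to 400 mg/kg/day and 30 to 150 mg/kg/day had a Pearson correlation of 0.122 across 12558 probe sets, which are not independent of each other.

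**Figure D4:**
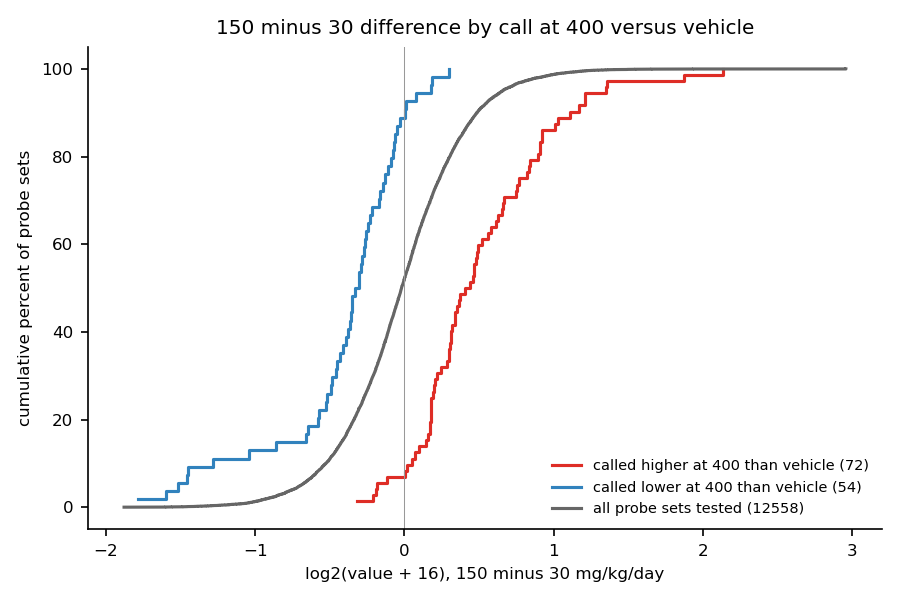
Cumulative percent of probe sets (vertical) against the 150 minus 30 mg/kg/day difference on the log2(value + 16) scale (horizontal). The 72 probe sets called higher at 400 mg/kg/day than with vehicle (red, median 0.42) lie to the right of all 12558 tested (grey), and the 54 called lower (blue, median -0.32) to the left.

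Read from the other side, the genes that stood apart at this step were set against their own differences at 400 mg/kg/day. Of the 151 genes wholly above, 88 had higher means at 400 mg/kg/day than with vehicle (58.3%, against 44.3% of all genes). There, 12 of them were called higher, against 47 of all 8226 genes. Of the 167 wholly below, 119 had lower means (71.3%, against 55.7%), and 9 were called lower, against 39 of all 8226. These calls rest on the same spread over all arrays, so genes with little spread in these groups were favoured on both sides. Of the 10 highest ranked genes named above on each side, 4 of the higher ones were called higher at 400 mg/kg/day, NQO1 (2.46 ± 0.25), AKR1B10 (3.61 ± 0.40), ACAA2 (1.51 ± 0.20) and GALT (1.19 ± 0.22), and 3 of the lower ones lower, HGFAC (-2.12 ± 0.21), SPP2 (-2.45 ± 0.37) and GNMT (-0.93 ± 0.17). MT1G differed there by -1.02 ± 0.50 and REST by -0.04 ± 0.20, neither called.

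**Figure D5:**
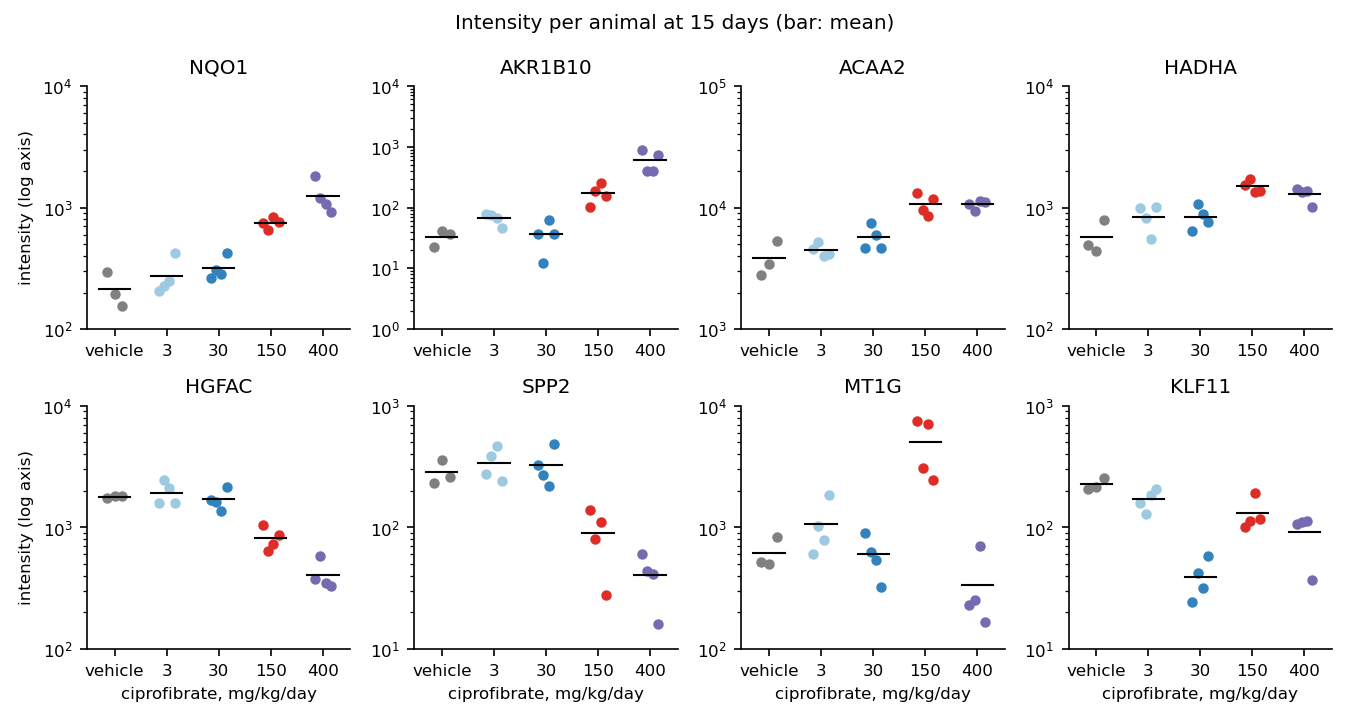
Intensity (log axis) of 8 genes in each 15-day animal by dose, with bars at group means, from vehicle to 400 mg/kg/day. NQO1, AKR1B10, ACAA2 and HADHA are higher at 150 than at 30 mg/kg/day and HGFAC and SPP2 lower, MT1G is high at 150 mg/kg/day alone, and KLF11 is lowest at 30 mg/kg/day.

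The step was also tested against its neighbours over all probe sets. Each neighbour shares a group with the step, that on 30 mg/kg/day below and that on 150 mg/kg/day above, and the steps are not equal in dose ratio. The calls of these contrasts are thus not separate support for the step. Against the step from 3 to 30 mg/kg/day, 1 probe set was called, for KLF11, and it lost its call in 6 fits that left out 1 animal: without 3 mg/kg/day replicate 4 (adjusted p = 0.081), 30 mg/kg/day replicates 1, 2 and 3 (0.119, 0.0571 and 0.0607) and 150 mg/kg/day replicates 3 and 4 (0.0546 and 0.0519). The KLF11 call was also lost with the replicate number as a block (adjusted p = 0.0621) and with a pseudocount of 64 (adjusted p = 0.0578). Against the step from 150 to 400 mg/kg/day, 5 were called (0.0398%): those for MT1G, REST and MT1H and 2 that name no gene. All 5 were higher at 150 mg/kg/day than in both neighbouring groups. For NQO1 the differences between steps were 0.99 ± 0.40 and 0.52 ± 0.40 against the lower and the upper step, and for HGFAC -0.86 ± 0.33 and -0.05 ± 0.33, none of them called.

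The markers of other liver cells were read beside these values, and their part in the results was not tested. Stellate cell and matrix markers had lower means in 19 of 27 genes (median -0.19) and summed to between 7976 and 10989.7 at 150 mg/kg/day, against 9112 to 12988 at 30 mg/kg/day. Kupffer cell and macrophage markers had lower means in 11 of 17 (median -0.15) with sums of 4062 to 4484 at 150 mg/kg/day, against 4364 to 5148 at 30 mg/kg/day. For both lists the ranges overlapped. The genes apart were SPARC, a matrix glycoprotein, wholly below (-0.46 ± 0.23) and CD68, a macrophage lysosomal protein, wholly above (0.63 ± 0.27). These are 3.7% of the matrix list, against 2.03% of all genes, and 5.88% of the macrophage list, against 1.84%. The medians of the endothelial, cholangiocyte, T and NK cell, B and plasma cell, neutrophil and red cell lists lay between -0.02 and 0.11, and their sums overlapped between groups. Of the control genes, ACTB differed by -0.11 ± 0.19 and GAPDH by 0.23 ± 0.20 (0.74 ± 0.36 from its dimmer probe set). Cell cycle and DNA replication had 2 of 47 genes wholly above (4.26%, against 1.84% of all genes) and 0 below. Among them was CCND2, a D-type cyclin (1.32 ± 0.35, with 0.10 ± 0.41 from its other probe set). In DNA damage and apoptosis 1 of 37 was wholly above (2.7%, against 1.84% of all genes) and 2 wholly below (5.41%, against 2.03%). No gene was apart among 13 of bile acid synthesis and transport (median -0.15) or 13 MHC genes (median 0.09). Of 31 interferon response genes (median 0.04) the chemokine CXCL10 alone was by its representing probe set (3.23%, against 2.03% of all genes). CXCL10 lay wholly below (-1.32 ± 0.38), with a mean under the 40th percentile. A dimmer probe set of the interferon-induced IFIT1 was wholly above (1.01 ± 0.31), while the one representing IFIT1 overlapped (0.40 ± 0.37).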

How the data were processed

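Liver RNA of 23 monkeys was measured on 23 arrays. The deposited intensity values are on a linear scale and were computed by the authors with MAS5, per the submitters' processing notes. Neither its version nor its settings are known from the labels. The trimmed mean (2% off each end) was between 150.065 and 150.08 on every array, so no further scaling was applied. Of 12625 probe sets 67 controls were left out. Values were tested as log2(value + 16) on all 12558 remaining probe sets, without an intensity filter, in a means model of 7 dose and day groups with limma 3.58.1 (R 4.3.3, intensity trend, 16 residual and 7.06 prior degrees of freedom), two-sided, with Benjamini-Hochberg adjustment over all probe sets. The median intensity per array was between 55 and 71.6.

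Of all probe sets, 10961 named 1 gene, 545 several and 1119 none, by the platform's annotation. A gene was represented by its brightest single-gene probe set (8226 genes, of which 5462 lay at or above the 40th percentile of mean log2 values, an intensity of 39.7). The 37 gene lists held 1102 genes, of which 874 were measured. Members, lists and named genes were chosen with earlier results of these data known. Named were all called genes, the 10 with the smallest p each way among non-overlapping genes at or above the 40th percentile, up to 4 with the smallest p of a list, and a fixed set of genes where measured. Other genes named, as list members that stood apart, were chosen after their values were seen.

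On simulated data for 150 versus 30 mg/kg/day over 12558 probe sets, log2 changes of 0.5, 1 and 2 were recovered for 0 of 67, 15 of 67 and 53 of 66 probe sets, and 5 unchanged ones were called. Alternatives covered the pseudocount, a filter, scaling, variance options, array weights, the 8 arrays alone, the replicate number as a block, the probe set summary and leaving out single animals.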

Additional observations from a re-analysis of the deposited data

Results flagged for a closer look

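In 236 groups of 4 animals checked (114 probe sets and 4 array measures at each dose), 10 held an animal farther from its nearest neighbour than Dixon's critical share of the group's range for 4 values, on the scale tested, and chance flags about 1 in 20 groups. At 150 mg/kg/day, SCD was high in replicate 1, at 918.6 where the others had 173.0 to 210.6, and XIAP, an apoptosis inhibitor, was low in it, at 27.1 against 77.5 to 81.6. Replicate 4 at 150 mg/kg/day was low for ELOVL2, at 100 against 150.2 to 160.0, and high for the complex III subunit UQCRC2, at 83.8 against 54.5 to 57.9. At 30 mg/kg/day, replicate 4 was the animal singled out in 5 genes, and its array also had the lowest correlation with its group. It was low for the ribosomal protein RPS24 (714.7, the others 1192 to 1313), the macrophage marker CD68 (82.1, the others 296.8 to 314.3) and the complement protease C1S (781.2, the others 1276 to 1395). It was high for the interferon response genes BST2 (532.1, the others 287.6 to 312.9) and CXCL10 (99.1, the others 59.4 to 62.2). Replicate 1 at 30 mg/kg/day was high for UQCRC2, at 203.6 against 99.6 to 107.9.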

How the results depend on the processing

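The count of called probe sets was small and moved with the setting. From 2 it came to 1 with a pseudocount of 1 (1 higher), with the 40th percentile filter (1 higher) and with array weights (1 higher), to 4 with a pseudocount of 64 (2 lower) and to 4 with arrays brought to one median (1 lower). Leaving out 1 animal gave 2 to 11 calls, 2 to 6 higher and 0 to 5 lower. Against the lower step, 1 call became 0 with a pseudocount of 64 and 2 with quantile normalization and with arrays brought to one median, all higher. Leaving out 1 animal gave 0 to 2 (0 to 2 higher, 0 to 1 lower), with 2 without 3 mg/kg/day replicates 1 and 3 or 30 mg/kg/day replicate 4. Against the upper step, 5 calls became 3 with the filter and 3 with a replicate block, all higher, and 3 to 6 without 1 animal (3 to 6 higher, 0 to 1 lower): 3 without 30 mg/kg/day replicate 1, 150 mg/kg/day replicate 4 or 400 mg/kg/day replicates 1 and 4. The cause of these shifts was not tested, except that fewer probe sets entered with the filter. Genes wholly below numbered 109 when arrays were brought to one median. The medians of probe sets called at 400 mg/kg/day stayed between 0.36 and 0.46 and between -0.35 and -0.27 without 1 animal. Single genes kept their direction except CPT1A (-0.0837 without 150 mg/kg/day replicate 4) and ACTB (0.0836 without 30 mg/kg/day replicate 1, and down to -0.275 without other animals), and the list medians, 296 without 1 animal and 185 under other settings, all moved by less than the spread between animals. Same-numbered animals of the 2 groups had correlations of -0.0232, 0.0095, 0.0187 and 0.0719, and the other pairs -0.063 to 0.044. At 150 mg/kg/day, replicates 3 and 4 correlated best with their own number, while replicates 1 and 2 did not. Values this small cannot decide whether the numbers pair the animals, and the main fit did not pair them. The replicate block gave 3 calls at this step, adding NFIX (adjusted p = 0.0334), and ended the KLF11 call against the lower step (adjusted p = 0.0621). Without detection calls, signal near background limits what can be said of low probe sets.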
